A study of Arabidopsis thaliana with 12 samples.

Results

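The data concern 10 regulators of the floral transition, the switch of the shoot apex from making leaves to making flowers: FT, TFL1, FD, SOC1, AGL24, FUL, LFY, FLC, FLM and SVP. They were chosen by name, from their place in the flowering pathway, with earlier results of these data known. They make up 10 of the 22054 genes that appear in either of the deposited expression tables. Messenger RNA was sequenced from whole Arabidopsis thaliana seedlings at 7 days after germination, grown at 21 °C with 16 h of light and 8 h of darkness. The 4 groups, with 3 libraries each, were Col-0 seedlings with SNP, Col-0 seedlings with Mock, ap1/cal seedlings with SNP and ap1/cal seedlings with Mock. SNP (sodium nitroprusside) is a compound that releases nitric oxide, and it was given at 1 mM in the plate medium for 24 h, while Mock plates held none. Col-0 is the wild type, and ap1/cal is a double mutant of the floral meristem genes AP1 and CAL in the Col-0 background, which overproduces meristem tissue at its inflorescences. SNP also holds iron and cyanide, and no plates with another nitric oxide donor or with spent SNP were analysed here. The methods section on RNA sequencing describes inflorescence apices of ap1/cal, while the labels of all 12 libraries, like the study's own account of this experiment, name seedlings. The hour of collection was not given in the sources used here. The question put to the tables was how the flowering regulators responded to SNP in each genotype, and how they stood in the ap1/cal background.

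The switch to flowering is set by a few signals that meet at a small group of genes. FT is made in leaves in long days, its protein moves to the shoot apex, and there it binds the bZIP factor FD and turns on the MADS-box genes SOC1 and FUL and later LFY, which gives new meristems their floral identity. TFL1, a relative of FT, competes for FD and keeps the apex vegetative. AGL24 promotes flowering together with SOC1, and the MADS-box proteins FLC, FLM and SVP hold FT and SOC1 down.

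The stretches before the annotated start are shown for FT, AGL24 and FLC, because these members passed the filter on low values given below and were called higher with SNP in both genotypes. FUL also lay higher with SNP in both genotypes but did not pass that filter. Its stretch is not shown and held none of the elements marked here. Each holds the 250 bases upstream of the start in the RefSeq annotation of TAIR10.1, read 5′ to 3′ on the gene's strand. All 10 members matched the annotation. Capitals in FT and AGL24 mark TGTGNNATG (the short form) or the same letters with 3 free bases N in place of 2 (the long form), variants of the element that the photoperiod factor CO is known to bind, and capitals in FLC mark CACGTG, the G-box.
FT (chr1:24331123-24331372, plus strand): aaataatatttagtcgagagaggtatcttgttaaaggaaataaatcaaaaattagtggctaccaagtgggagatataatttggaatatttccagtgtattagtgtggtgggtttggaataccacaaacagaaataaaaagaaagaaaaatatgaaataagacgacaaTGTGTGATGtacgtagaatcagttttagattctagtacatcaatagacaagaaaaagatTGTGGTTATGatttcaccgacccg
AGL24 (chr4:12674107-12674356, minus strand): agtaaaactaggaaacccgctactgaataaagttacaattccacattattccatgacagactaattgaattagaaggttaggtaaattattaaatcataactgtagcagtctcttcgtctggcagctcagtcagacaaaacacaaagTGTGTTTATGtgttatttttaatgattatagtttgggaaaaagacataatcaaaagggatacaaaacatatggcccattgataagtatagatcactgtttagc
FLC (chr5:3179449-3179698, minus strand): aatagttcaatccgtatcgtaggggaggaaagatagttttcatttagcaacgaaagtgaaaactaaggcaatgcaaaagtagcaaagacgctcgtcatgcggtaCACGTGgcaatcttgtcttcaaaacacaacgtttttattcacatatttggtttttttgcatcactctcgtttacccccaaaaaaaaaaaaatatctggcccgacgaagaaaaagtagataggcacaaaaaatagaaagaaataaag

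Both strands were searched, and positions are counted back from the base before the start. FT held the short form with its first base at -83 and the long form at -24, AGL24 held the long form at -103, and LFY held it on the minus strand at -153. Of 27443 promoters of the same length, 7.04% held either form (3.34% the short and 3.90% the long). FLC was the one member with CACGTG, at -146, which 6.49% of promoters held. CCAAT was found in FLM, SVP, TFL1 and FUL and in 46.0% of promoters, and no member held the CArG box, the element of MADS-box proteins, which 2.52% of promoters held. These are matches of letters and do not show that a factor was bound.

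Of the 10 members, 7 passed the filter on low values (10 or more in 3 or more of the 12 libraries). FUL, TFL1 and LFY did not, and LFY had a row in the Col-0 table only. A gene was called when its adjusted p was below 0.05 (limma on log2(value + 1), Benjamini-Hochberg over 20623 genes) and its fold change was at least 1.5. In Col-0, 4 of the 7 members were called, against 55.9% of all genes tested: FT, FLC and AGL24 were higher with SNP and FD was lower, where 26.9% of all genes were called higher and 29.1% lower. In ap1/cal, 5 of the 7 were called, against 62.9% of all genes: the same 3 were higher, and SOC1 and FD were lower, where 29.8% of all genes were called higher and 33% lower. Both shares of members lie near the background of all genes. Their median log2 fold change was 0.19 for Col-0 and 0.50 for ap1/cal, where the median of all genes tested was -0.02 for Col-0 and -0.04 for ap1/cal.

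The seedlings were whole, and several marker lists moved with SNP. The 5 root markers summed to between 660 and 687 with SNP in Col-0, against 1756 to 1879 with Mock, and to between 358 and 466 with SNP in ap1/cal, against 2020 to 2094 with Mock. The root hair markers EXPA7 and COBL9 differed most, with means of 3.80 and 4.14 with SNP in ap1/cal, against 464 and 264 with Mock. PLT1 of the same list was not called in Col-0 (limma, adjusted p = 0.512) and was called lower in ap1/cal (limma, adjusted p = 0.0117). The 4 green tissue markers summed to between 1006090 and 1068910 with SNP in Col-0, against 642097 to 744064 with Mock, and to between 946313 and 1149290 with SNP in ap1/cal, against 668425 to 860873 with Mock. These sums rest mostly on RBCS1A, and PSBO1 was not called in either genotype (fold 0.97 in Col-0, limma, adjusted p = 0.715, and 0.93 in ap1/cal, limma, adjusted p = 0.387). None of the markers with rows was at 0 in all libraries of a group. For the shoot meristem, where FD, SOC1, FUL, TFL1 and LFY act, 3 of 4 markers had rows (WUS had none), and their sum was 51.2 to 65.6 with SNP in Col-0, against 62.3 to 74.99 with Mock, and 42.2 to 49.7 with SNP in ap1/cal, against 48.2 to 56.0 with Mock. Most of these sums is STM, which keeps the meristem undifferentiated and was not called in either genotype (limma, adjusted p = 0.243 for Col-0 and 0.698 for ap1/cal). The boundary gene CUC2 was called lower in both, at 8.72, 9.14 and 2.33 with SNP in Col-0, against 25.7, 20.7 and 26.6 with Mock, and at 0, 1.66 and 5.76 with SNP in ap1/cal, or 0, 1 and 3 estimated reads, against 14.6, 9.98 and 13.5 with Mock. CUC2 passed the filter only through Mock libraries, and its values with SNP all lay under the filter limit of 10. Of 5 floral organ markers 4 had rows (AG had none), with sums of 81.5 to 104 with SNP in Col-0, against 87.2 to 89.8 with Mock, and 76.1 to 101 with SNP in ap1/cal, against 73.7 to 98.0 with Mock. The floral sums add opposite moves, since SEP1 was higher and SEP3 lower with SNP in both genotypes. The part of these shifts in the members' values was not tested, and in bulk samples fewer cells of a type and less RNA per cell cannot be told apart. Estimated reads per library ranged between 22483266 and 59714557. SNP replicates 2 and 3 of ap1/cal had 26963979 and 23742267, against at least 30410500 in the ap1/cal Mock libraries.

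**Figure D1:**
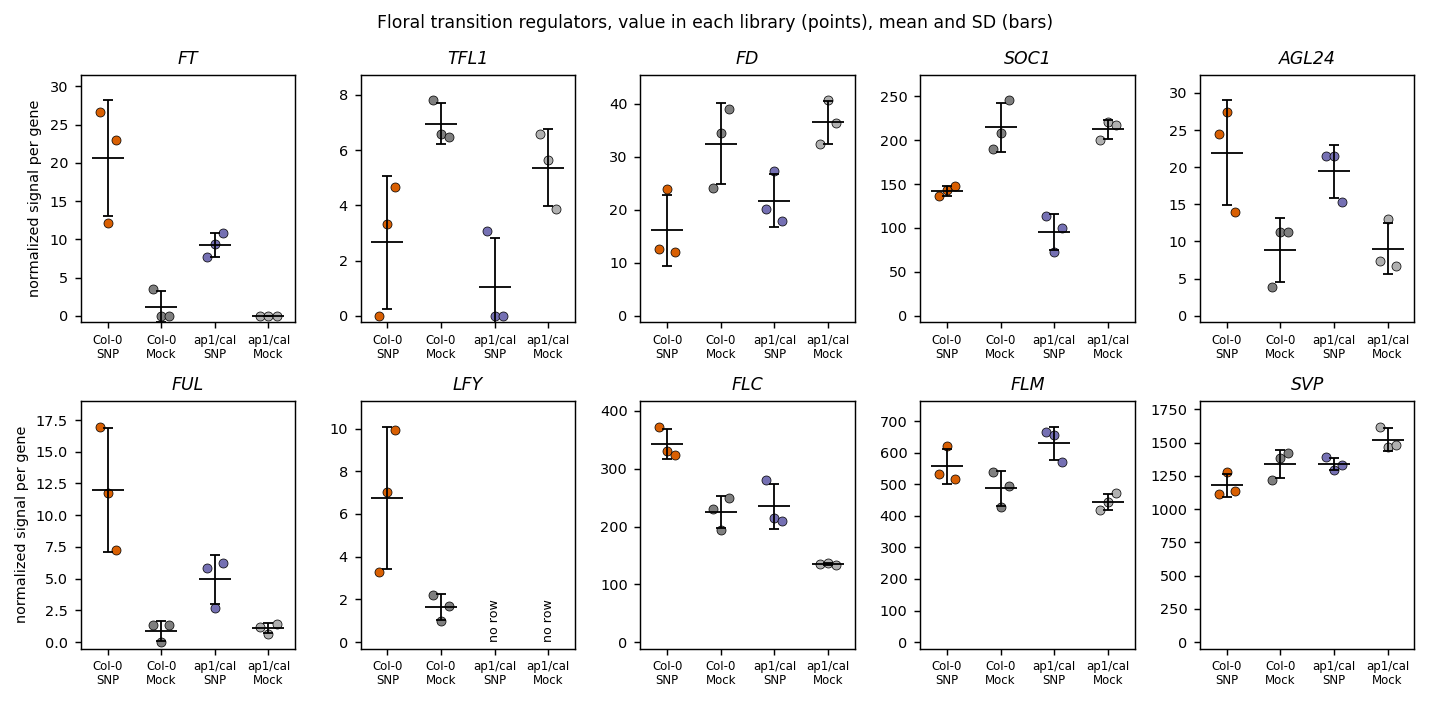
Deposited normalized signal of the 10 regulators in each library, 1 panel per gene, with SNP left of Mock within each genotype, points for single libraries and bars for the group mean. FT, FUL, AGL24 and FLC lay higher with SNP in both genotypes, FD, TFL1 and SOC1 lay lower, and LFY has no points for ap1/cal.

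FT (AT1G65480, chr1:24331373-24333999, plus strand), the mobile flowering signal, was close to undetected in Mock seedlings and present in every SNP library. In Col-0 its signal was 26.7, 12.2 and 23.0 with SNP, against 3.56, 0 and 0 with Mock. In ap1/cal it was 7.73, 9.34 and 10.8 with SNP, against 0, 0 and 0 with Mock. SNP and Mock libraries did not overlap in either genotype, as was also the case for 78.6% of all genes in Col-0 (39.1% with SNP above Mock, 39.5% below) and for 82.3% in ap1/cal (40.2% above, 42.1% below). By that measure all members but SVP and FLM were apart in Col-0, and all 9 with values were in ap1/cal. These counts include FUL, TFL1 and, in Col-0, LFY, whereas the shares of all genes cover only those that passed the filter. The Col-0 log2 fold change was 3.63 ± 0.59 (SE, n = 3 per group, limma, adjusted p = 7.9e-05). Behind these values stood few reads: 15.3, 14.6 and 19.7 estimated reads with SNP in Col-0, against 4.57, 0 and 0 with Mock. In ap1/cal the SNP libraries had 7.54, 5.63 and 5.65 estimated reads of FT, and against a limit of 3 reads per Mock library, the most that a count of 0 allows, FT was at least 4.37-fold higher, and it was called (limma, adjusted p = 1.4e-04). The size on the log2 scale depended on the pseudocount, with values between 2.05 (pseudocount 5) and 4.32 (pseudocount 0.5) in Col-0 and between 1.51 and 4.28 in ap1/cal, and the call held in each case. FT passed the filter only through SNP libraries, 3 of Col-0 and 1 of ap1/cal, so a gene with its level had to differ to be tested at all.

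TFL1 (AT5G03840, chr5:1024500-1025872, minus strand), the counterpart of FT that keeps the apex vegetative, had low signals, with every SNP library below every Mock library. They were 0, 3.32 and 4.67 with SNP in Col-0, against 7.80, 6.58 and 6.46 with Mock. In ap1/cal they were 3.08, 0 and 0 with SNP, all at or under 3 reads, against 6.59, 5.64 and 3.86 with Mock. With 3 reads set for each SNP library, TFL1 was 1.17-fold lower with SNP there. That fold is not a lower bound, because SNP replicate 1 held 3 reads. TFL1 did not pass the filter. In the fit of all 21623 genes that both tables hold, without a filter, TFL1 was called lower in ap1/cal (limma, adjusted p = 0.0168) and was not called in Col-0 (limma, adjusted p = 0.0696).

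FD (AT4G35900, chr4:17004382-17006462, plus strand), the bZIP partner of both FT and TFL1 at the apex, was lower with SNP. Its signal in Col-0 was 12.5, 23.9 and 11.96 with SNP, against 24.1, 34.4 and 38.9 with Mock, so that the highest SNP library lay just under the lowest Mock library. The ap1/cal values were 20.1, 27.3 and 17.8 with SNP, against 32.5, 40.6 and 36.3 with Mock, again with no overlap. The log2 fold change was -1.01 ± 0.29 in Col-0 (SE, n = 3 per group, limma, adjusted p = 0.00667) and -0.74 ± 0.29 in ap1/cal (limma, adjusted p = 0.0327). The ap1/cal call depended on 4 of its 6 libraries: without Mock replicate 2 or 3, or without SNP replicate 1 or 3, the log2 fold change was between -0.74 and -0.61 and the adjusted p was between 0.0666 and 0.101 (limma).

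SOC1 (AT2G45660, chr2:18807505-18811125, minus strand), the MADS-box factor that gathers several flowering signals at the apex, was called lower in ap1/cal, while in Col-0 it passed the p limit with a smaller fold. It gave 136, 143 and 147 with SNP in Col-0, against 190, 208 and 245 with Mock. The ap1/cal libraries gave 113, 73.1 and 100.1 with SNP, against 200, 220 and 217 with Mock. No SNP library reached a Mock library in either genotype. The log2 fold change was -0.58 ± 0.15 in Col-0 (SE, n = 3 per group, limma, adjusted p = 0.00348), which is just short of the 1.5-fold limit, and -1.17 ± 0.15 in ap1/cal, where SOC1 was called (limma, adjusted p = 8.7e-06). The Col-0 value passed the limit without Mock replicate 1 (-0.67), Mock replicate 2 (-0.60) or SNP replicate 3 (-0.61). In ap1/cal, SOC1 and FT, which is known to turn SOC1 on, were thus called in opposite directions.

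AGL24 (AT4G24540, chr4:12670897-12674106, minus strand), which promotes flowering and is related to SVP, was higher with SNP. Its signal was 24.4, 27.4 and 14.0 with SNP in Col-0, against 3.90, 11.3 and 11.3 with Mock. For ap1/cal the values were 21.5, 21.5 and 15.4 with SNP, against 7.33, 13.0 and 6.75 with Mock. The groups did not overlap, but the lowest SNP library and the highest Mock library lay close in both genotypes. These are 14, 33 and 12 reads with SNP and 5, 12 and 14 reads with Mock in Col-0. The log2 fold change was 1.29 ± 0.41 in Col-0 (SE, n = 3 per group, limma, adjusted p = 0.0116) and 1.07 ± 0.41 in ap1/cal (limma, adjusted p = 0.0286). The Col-0 call was lost without Mock replicate 1 (0.85, limma, adjusted p = 0.0601), and the ap1/cal call without Mock replicate 1 or 3 or SNP replicate 1 or 2 (between 0.91 and 0.99, limma, adjusted p between 0.0715 and 0.0922).

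FUL (AT5G60910, chr5:24502434-24506269, minus strand), a MADS-box gene that acts downstream of FT at the apex and later in the fruit, and LFY (AT5G61850, chr5:24844248-24846989, plus strand), the floral identity factor, were near the detection limit. FUL gave 16.98, 11.8 and 7.23 with SNP in Col-0, against 1.38, 0 and 1.31 with Mock. In ap1/cal it gave 5.86, 2.70 and 6.27 with SNP, against 1.20, 0.65 and 1.45 with Mock. The Mock libraries of both genotypes held no more than 3 reads each. With 3 reads set for each Mock library, FUL was 4.75-fold higher with SNP in Col-0 and 2.32-fold higher in ap1/cal. Most of these Mock libraries held reads, so a true level above 3 reads is possible and these folds are not lower bounds. In the fit without a filter it was called higher in Col-0 (limma, adjusted p = 1.6e-04) and in ap1/cal (limma, adjusted p = 0.0153). LFY gave 3.30, 7.02 and 9.95 with SNP in Col-0, against 2.22, 0.99 and 1.70 with Mock. With 3 reads set for each Mock library, LFY was 2.67-fold higher with SNP, again not a lower bound. Its highest SNP libraries held 8.44 and 8.53 estimated reads and its lowest 1.90, within the 3-read limit. In a fit of the Col-0 table alone, without a filter, over 21812 genes, its adjusted p was 0.0216 (limma, 6 libraries). LFY was not analysed in ap1/cal.

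FLC (AT5G10140, chr5:3173382-3179448, minus strand), the repressor that winter cold silences, was higher with SNP in both genotypes. Its signal was 373, 331 and 325 with SNP in Col-0, against 231, 194 and 249 with Mock. With ap1/cal seedlings it was 280, 215 and 209 with SNP, against 135, 137 and 133 with Mock. The 3 Mock libraries of ap1/cal lay close to each other, and no library of one treatment reached the other. The log2 fold change was 0.61 ± 0.13 in Col-0 (SE, n = 3 per group, limma, adjusted p = 7.2e-04) and 0.78 ± 0.13 in ap1/cal (limma, adjusted p = 8.0e-05). The Col-0 value stood just above the 1.5-fold limit and fell short of it without Mock replicate 2 (0.51) or SNP replicate 1 (0.55). FLC shares its locus with the antisense gene AT5G01675 on the opposite strand, and 49.9% of its 75-base windows also occur in that gene. AT5G01675 was not analysed here, and since the sources do not say whether strand was used in counting, reads from the pair cannot be told apart.

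FLM (AT1G77080, chr1:28955483-28960234, plus strand), a relative of FLC that is spliced according to temperature, and SVP (AT2G22540, chr2:9579647-9583901, plus strand), the partner of both, were not called in either genotype. FLM gave 534, 620 and 517 with SNP in Col-0, against 538, 429 and 495 with Mock, with overlap. The ap1/cal libraries gave 664, 656 and 569 with SNP, against 419, 443 and 471 with Mock, with no overlap. Its log2 fold change was 0.19 ± 0.10 in Col-0 (SE, n = 3 per group, limma, adjusted p = 0.105) and 0.50 ± 0.10 in ap1/cal (limma, adjusted p = 5.7e-04), a fold of 1.41. The annotation gives FLM 11 transcripts, and the tables hold 1 value for them together. SVP gave 1116, 1278 and 1140 with SNP in Col-0, against 1221, 1381 and 1422 with Mock, with overlap. In ap1/cal it gave 1390, 1297 and 1330 with SNP, against 1620, 1465 and 1482 with Mock. The log2 fold change of SVP was -0.19 ± 0.08 in Col-0 (SE, n = 3 per group, limma, adjusted p = 0.0436) and -0.18 ± 0.08 in ap1/cal (limma, adjusted p = 0.0431), so it passed the p limit with a fold of 0.88 in each genotype.

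**Figure D2:**
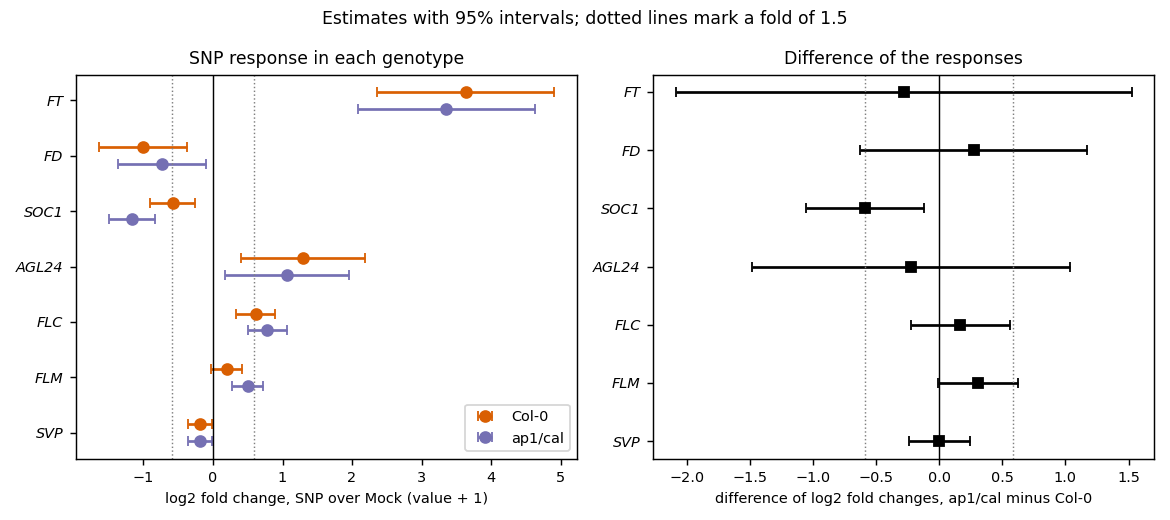
Log2 fold change of SNP over Mock (value + 1) for the 7 members that passed the filter, in Col-0 and ap1/cal, with 95% confidence intervals. The widest intervals belonged to FT, AGL24 and FD, which had the fewest reads, and SOC1 lay furthest apart between the genotypes relative to its interval.

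The response to SNP in ap1/cal was set against the response in Col-0 as 1 term in the same fit, ap1/cal minus Col-0. None of the 7 members was called, where 14.6% of all genes were (7.6% with a higher response in ap1/cal and 6.97% with a lower one). At an unadjusted p below 0.05 there was 1 member, SOC1, beside 7500 of the 20623 genes. The response of SOC1 was lower in ap1/cal by 0.59 on the log2 scale (95% interval -1.05 to -0.12, limma, adjusted p = 0.0668). That term was called without SNP replicate 1 of ap1/cal, at -0.72 (limma, adjusted p = 0.0252). For FLM the difference was 0.31 (-0.013 to 0.62), for FLC 0.17 (-0.23 to 0.56), for FD 0.27 (-0.62 to 1.17), for AGL24 -0.22 (-1.48 to 1.03) and for FT -0.28 (-2.08 to 1.52). The intervals of AGL24 and FT allow responses that differ by more than 1 log2 unit, so a missing call does not show that the genotypes responded alike. SVP gave 0.00 (-0.24 to 0.24), the narrowest interval among the members.

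The tables were scaled by the authors so that the median gene hardly moved with SNP, and the direction of some members depended on that choice. With each library set to the same upper quartile, the median response over all genes was -0.25 for Col-0 and -0.39 for ap1/cal, and with each library set to the same total it was -0.52 for Col-0 and -0.75 for ap1/cal. Higher genes made up 48.0% of the calls in Col-0 and 47.5% in ap1/cal as deposited, 35.7% (Col-0) and 32.7% (ap1/cal) with the upper quartile, and 25.1% (Col-0) and 21.6% (ap1/cal) with the total. FT stayed higher and FD stayed lower, both called, under every scaling. FLC was at 0.38 for Col-0 and 0.43 for ap1/cal with the upper quartile and with the total at 0.11 (Col-0) and 0.074 (ap1/cal), under the fold limit in each case. AGL24 was called in Col-0 with the upper quartile (1.08) but not in ap1/cal (0.74), and with the total in neither (0.83 for Col-0 and 0.41 for ap1/cal). SOC1 was called lower in Col-0 as well, at -0.81 with the upper quartile and -1.08 with the total, and its difference between genotypes was called at -0.70 (limma, adjusted p = 0.0305) and -0.79 (limma, adjusted p = 0.0217). SVP was called lower with the total, at -0.69 for Col-0 and -0.89 for ap1/cal. FLM turned negative in Col-0, at -0.036 with the upper quartile and -0.30 with the total, and in ap1/cal with the total, at -0.21. Rescaling shifts all genes of a library alike, so a distance from the median of all genes is nearly fixed by construction. For FLC it was 0.63, 0.63 and 0.63 in Col-0 under the 3 scalings and 0.82, 0.82 and 0.83 in ap1/cal, and for FT it was 3.65, 3.75 and 3.86 in Col-0 and 3.39, 3.59 and 3.79 in ap1/cal.

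**Figure D3:**
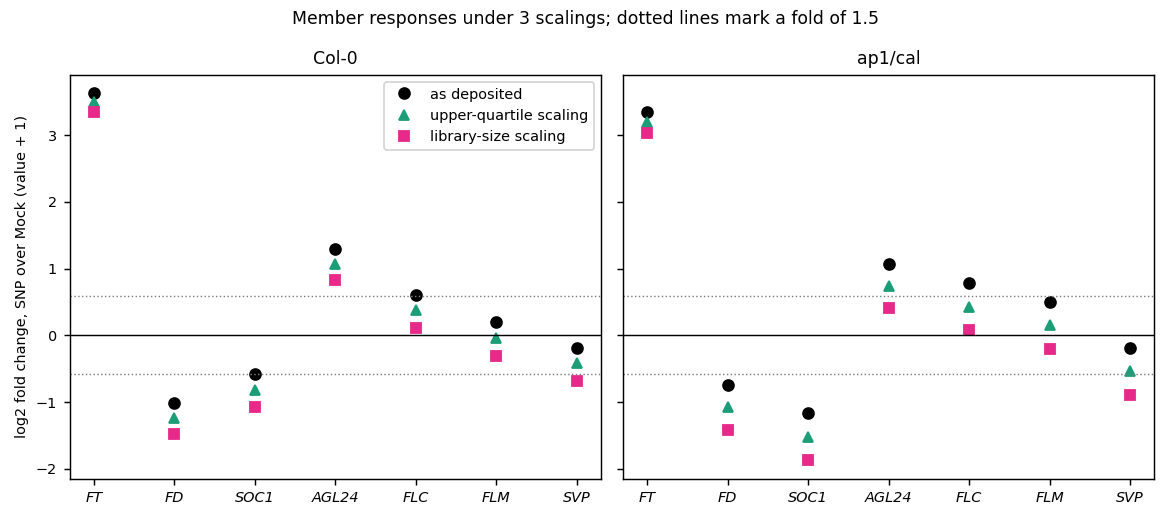
Log2 fold change of SNP over Mock for the 7 members under the deposited scaling, upper-quartile scaling and library-size scaling, in Col-0 and ap1/cal. FT and AGL24 stayed above 0 and FD and SOC1 below 0 in every case, while FLM crossed 0 in both genotypes with library-size scaling.

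Set in order of signal per kilobase of exon, the members spanned a wide range in Mock seedlings. Exon length joins the exons of all annotated transcripts, 4480 bases for FLM, 1180 for FLC and 1553 for SOC1. The place of FLM rests on that length, since its signal in Col-0 Mock averaged 487, against 225 for FLC and 214 for SOC1. In Col-0 Mock the order of means ± SD was SVP 749 ± 59.4, FLC 190 ± 23.6, SOC1 138 ± 18.2, FLM 109 ± 12.2, FD 17.4 ± 4.06, TFL1 7.98 ± 0.85, AGL24 7.64 ± 3.69, FT 1.22 ± 2.11, LFY 1.19 ± 0.45 and FUL 0.69 ± 0.60 per kb (n = 3). SOC1 and FLM overlapped within 1 SD, as did TFL1 and AGL24, and FT, LFY and FUL. With SNP the order in Col-0 was SVP 658 ± 48.9, FLC 291 ± 22.2, FLM 124 ± 12.3, SOC1 91.5 ± 3.498, FT 21.1 ± 7.74, AGL24 19.0 ± 6.10, FUL 9.20 ± 3.74, FD 8.63 ± 3.60, LFY 4.90 ± 2.42 and TFL1 3.06 ± 2.76 per kb. FT thus stood in the fifth place with SNP and in the eighth with Mock, and FD in the eighth with SNP and in the fifth with Mock. Below SOC1, each member overlapped its neighbour in this order within 1 SD.

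In ap1/cal with SNP the order was SVP 747 ± 26.3, FLC 199 ± 33.6, FLM 141 ± 11.8, SOC1 61.4 ± 13.1, AGL24 16.9 ± 3.09, FD 11.6 ± 2.66, FT 9.54 ± 1.60, FUL 3.79 ± 1.496 and TFL1 1.18 ± 2.04 per kb. In ap1/cal Mock it was SVP 850 ± 47.5, SOC1 137 ± 7.09, FLC 114 ± 1.84, FLM 99.2 ± 5.74, FD 19.5 ± 2.19, AGL24 7.82 ± 3.002, TFL1 6.17 ± 1.60, FUL 0.84 ± 0.31 and FT at 0 in all 3 libraries. In both genotypes the 4 most expressed members were thus SVP, FLC, SOC1 and FLM with either treatment. In ap1/cal with SNP, AGL24 and FD, FD and FT, and FUL and TFL1 overlapped within 1 SD, and with Mock AGL24 and TFL1 did.

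The ap1/cal background can be read from these tables only side by side, since the tables of the genotypes were scaled separately and genotype is confounded with table. AP1 had no row in either table. CAL had a row in the ap1/cal table alone, at 7.18, 8.28 and 3.84 with SNP, against 2.93, 3.47 and 5.79 with Mock, from 2 to 8 estimated reads per library. The mutations themselves were thus not checked from expression. Within a library, a ratio of a pair of genes does not depend on the scaling. SVP was taken as the denominator after its values had been seen, because its response was small in both genotypes. A small response to SNP does not show that SVP was equal between the genotypes, which was not tested. A ratio therefore cannot tell which gene of the pair differed. FLC over SVP was 0.0834, 0.0937 and 0.0897 in ap1/cal Mock, against 0.189, 0.141 and 0.175 in Col-0 Mock, so the ap1/cal libraries lay below all Col-0 libraries. Of 20622 genes, 37.7% did not overlap between the genotypes on this measure in Mock, and 36.4% had ap1/cal below Col-0. With SNP, FLC over SVP was 0.202, 0.166 and 0.157 in ap1/cal, against 0.334, 0.259 and 0.285 in Col-0, again without overlap, as for 51.6% of genes, 40.9% with ap1/cal below. SOC1 over SVP was 0.0814, 0.0564 and 0.0753 in ap1/cal with SNP, against 0.122, 0.112 and 0.129 in Col-0 with SNP. In Mock it was 0.123, 0.150 and 0.146 in ap1/cal, against 0.155, 0.151 and 0.172 in Col-0, where the closest libraries nearly met. FD over SVP overlapped between the genotypes in both treatments, with 0.0144, 0.0211 and 0.0134 in ap1/cal with SNP, against 0.0112, 0.0187 and 0.0105 in Col-0 with SNP.

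Genes whose signal followed a member most closely across the 12 libraries, after each table was centred, were named by Pearson's r, the top 2 of each member. For FT these were EULS3 (AT2G39050, r = 0.991) and AT2G34930 (0.989), for SOC1 AT5G64110 (0.9905) and AT3G16350 (0.9902), and for FLC GLX2-1 (AT2G43430, 0.996) and AT1G30860 (0.985). The libraries share the treatment, and 4436 genes had an r above 0.9 with FT and 4461 with FLC, so these are single names from long lists. For AGL24 they were AT5G05450 (0.955) and BZO2H1 (AT4G02640, 0.952), for FD ENODL13 (AT5G25090, 0.954) and AT1G80930 (0.948), for FLM RHC1A (AT2G40830, 0.964) and ZAT (AT2G46800, 0.962), and for SVP AT5G01030 (0.944) and AT1G21810 (0.927). SVP had the fewest, with 25 genes above 0.9.

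Around the members, 91 genes in 11 lists cover the rest of the pathway, of which 77 were tested. In Col-0, 27 of the 77 were called, 11 higher and 16 lower with SNP (35.1%, beside 55.9% of all genes). In ap1/cal, 38 passed, 14 higher and 24 lower (49.4%, beside 62.9%). These splits depended on the scaling: with the upper quartile they were 8 higher and 23 lower for Col-0 and 9 higher and 37 lower for ap1/cal, and with library-size scaling 5 higher and 35 lower for Col-0 and 5 higher and 42 lower for ap1/cal. The median log2 fold change of the 77 was -0.06 for Col-0 and -0.12 for ap1/cal. Among the other members of the FT and TFL1 family, BFT, a TFL1-like floral repressor, was higher, at 36.6, 29.9 and 18.7 with SNP in Col-0, against 8.58, 10.3 and 11.3 with Mock, and its log2 fold change was 1.37 for Col-0 and 1.76 for ap1/cal. ATC, the TFL1-like gene that represses flowering in short days, was called in ap1/cal alone, at 46.1, 69.6 and 82.5 with SNP, against 211, 237 and 227 with Mock. In Col-0 ATC gave 157, 112 and 229 with SNP, against 201, 192 and 195 with Mock, and the difference of the responses was called (-1.49, limma, adjusted p = 0.00641).

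**Figure D4:**
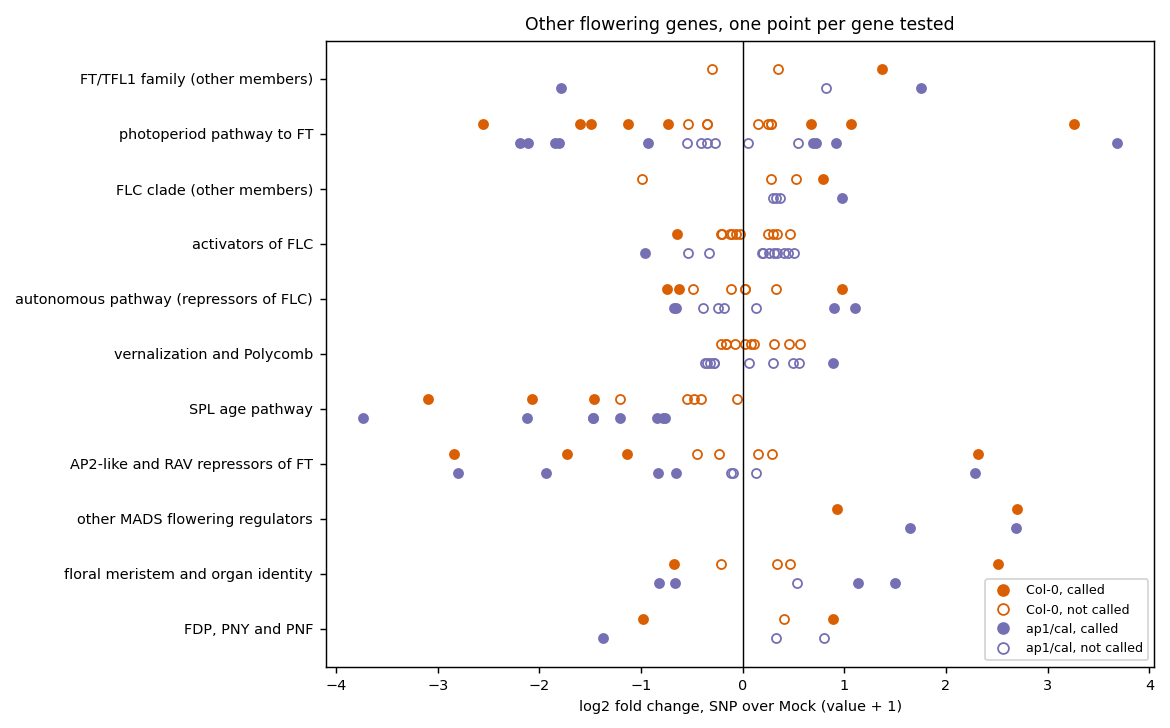
Log2 fold change of SNP over Mock for each tested gene of the 11 pathway lists, in Col-0 and ap1/cal, with filled points for genes called. The 8 SPL genes tested all lay below 0, and CDF2 was the highest point of the photoperiod list in both genotypes.

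Of the 15 photoperiod genes, which link day length to FT, 8 were called in Col-0 (3 higher, 5 lower), beside 55.9% of all genes. In ap1/cal 9 were called (4 higher, 5 lower), beside 62.9% of all genes. That split, too, moved with the scaling, to 2 higher and 7 lower (Col-0) and 1 higher and 9 lower (ap1/cal) with the upper quartile, and to 1 higher and 7 lower (Col-0) and 1 higher and 10 lower (ap1/cal) with library-size scaling. CDF2, a DOF factor that holds down CO and FT, averaged 1874 ± 62.7 with SNP and 196 ± 28.8 with Mock in Col-0 (SD, n = 3 each), a log2 fold change of 3.26, and 1975 ± 111 with SNP and 154 ± 21.4 with Mock in ap1/cal, a log2 fold change of 3.68. FKF1, the light receptor that removes CDF proteins, averaged 181 ± 29.9 with SNP and 1069 ± 197 with Mock in Col-0 (-2.55) and 270.3 ± 29.8 with SNP and 1175 ± 155 with Mock in ap1/cal (-2.11). NF-YB2, a subunit of the CCAAT-binding complex that works with CO, fell by 1.60 (Col-0) and 2.19 (ap1/cal) on the log2 scale, and that difference was called (-0.59, limma, adjusted p = 0.0223). GI, the partner of FKF1, and CO, the activator of FT, were added after their values were seen. GI fell by 1.49 (Col-0) and 1.81 (ap1/cal). CO was low, at 6.44, 10.7 and 14.0 with SNP in Col-0, against 10.2, 16.9 and 19.1 with Mock, and was not called there (-0.54), whereas in ap1/cal it gave 9.83, 1.69 and 7.83 with SNP, against 19.0, 17.9 and 30.5 with Mock, and was called lower (-1.85). The difference between the genotypes was not called for CO (-1.31, limma, adjusted p = 0.197). These genes follow the clock and the hour of collection is not known.

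The 8 repressors of FT of the AP2 and RAV families moved both ways, with 1 higher and 3 lower in Col-0 and 1 higher and 4 lower in ap1/cal. Of all genes, 55.9% were called in Col-0 and 62.9% in ap1/cal. TEM2, a RAV repressor of FT, averaged 21287 ± 466 with SNP and 4289 ± 144 with Mock in Col-0 (2.31) and 25231 ± 542 with SNP and 5201 ± 347 with Mock in ap1/cal (2.28). TOE1, an AP2-like repressor targeted by miR172, averaged 278 ± 44.8 with SNP and 1982 ± 71.9 with Mock in Col-0 (-2.84) and 251 ± 6.24 with SNP and 1755 ± 33.4 with Mock in ap1/cal (-2.80). The 8 tested SPL genes, factors that rise as the plant ages and promote flowering, were all called lower in ap1/cal. In Col-0, 3 of them were (6 with the upper quartile and 7 with library-size scaling). Of all genes, 33% were called lower in ap1/cal and 29.1% in Col-0 as deposited. The median log2 fold change of the 8 was -0.88 for Col-0 and -1.34 for ap1/cal. SPL9 averaged 29.6 ± 16.1 with SNP and 116 ± 29.3 with Mock in Col-0 (-2.08) and 24.8 ± 7.28 with SNP and 109 ± 16.9 with Mock in ap1/cal (-2.12). SPL15 gave 3.49, 1.66 and 4.67 with SNP in Col-0, against 32.0, 33.8 and 35.5 with Mock, and it passed the filter only through Mock libraries. However, 90.01% of the 75-base windows of SPL15 also occur in AT3G57910 on the opposite strand. SPL3 likewise shares 89.2% of its windows with AT2G33815 on the opposite strand.

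The counts for FLC that follow stand beside 55.9% of all genes called in Col-0 and 62.9% in ap1/cal as deposited. Of 11 activators of FLC 1 was called in the values as deposited, PIE1, a chromatin remodeller, which fell by 0.65 (Col-0) and 0.96 (ap1/cal) on the log2 scale. With the upper quartile 1 activator was called lower in Col-0 and 3 in ap1/cal, and with library-size scaling 5 in Col-0 and 3 in ap1/cal. Of 8 genes of the autonomous pathway, which lower FLC, 3 were called in Col-0 (1 higher, 2 lower) and 4 in ap1/cal (2 higher, 2 lower). FPA, an RNA-binding protein, was higher (0.98 for Col-0 and 1.11 for ap1/cal) and FLD, a histone demethylase homolog, was lower (-0.75 in Col-0, -0.65 in ap1/cal), and FCA, another RNA-binding protein, was called higher in ap1/cal (0.89) and not in Col-0 (0.33), with a difference of 0.57 that passed the p limit (limma, adjusted p = 0.0054) but not the fold limit. REF6, a histone demethylase named after its values were seen, was lower in both (-0.63 for Col-0 and -0.68 for ap1/cal). Of the 10 vernalization and Polycomb genes tested, none was called in Col-0 by limma (5 had an unadjusted p below 0.05), and 1 in ap1/cal, LHP1, a reader of the Polycomb mark (0.88, with 0.57 in Col-0 and a difference that was not called, limma, adjusted p = 0.102). VIN3 of this list, named after its values were seen, had a row in the ap1/cal table only and was not tested. It gave 12.6, 9.33 and 7.23 with SNP, or 12.2, 5.63 and 3.77 estimated reads, against 0, 0 and 0 with Mock. Against 3 reads per Mock library, VIN3 was at least 4.55-fold higher with SNP. With library-size scaling the higher calls of FPA, FCA and LHP1 were lost, and lower calls came to 3 genes of the vernalization and Polycomb list in Col-0 and 6 in ap1/cal. MAF3 was the one of 4 other FLC relatives that was called, at 0.79 for Col-0 and 0.97 for ap1/cal. Its Col-0 call was lost with the upper quartile, and with library-size scaling it was called in neither.

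Of 7 other MADS-box flowering regulators, 2 passed the filter and both were higher. AGL15, a repressor of flowering, gave 341, 420 and 367 with SNP in Col-0, against 46.6, 65.3 and 60.2 with Mock, and its log2 fold change was 2.70 for Col-0 and 2.69 for ap1/cal. AGL18, which acts with AGL15, was at 0.93 for Col-0 and 1.64 for ap1/cal, a difference that was called (0.71, limma, adjusted p = 0.00294), and with library-size scaling neither its Col-0 response nor the difference was. Of the 11 floral identity genes 5 were tested. SEP1, a floral organ factor, averaged 25.5 ± 6.84 with SNP and 3.74 ± 1.71 with Mock in Col-0 (2.51) and 15.3 ± 6.10 with SNP and 4.57 ± 1.43 with Mock in ap1/cal. It passed the filter only through SNP libraries, so it had to differ to be tested, and with library-size scaling its ap1/cal value (0.88) was not called. SEP3 was lower in both (-0.67 for Col-0 and -0.66 for ap1/cal). LMI1, a homeodomain target of LFY, was called in ap1/cal (1.13) and not in Col-0 (0.34), and the difference was not called (limma, adjusted p = 0.271), while with library-size scaling its ap1/cal value (0.47) was not called either. PNF, a homeodomain factor that lets the apex respond to flowering signals, fell by 0.98 (Col-0) and 1.37 (ap1/cal), and FDP, the closest relative of FD, was higher in Col-0 (0.89) and not called in ap1/cal (0.80), with a difference of -0.09 (limma, adjusted p = 0.921). The Col-0 call of FDP was lost with the upper quartile (0.67) and with library-size scaling (0.41). Apart from ATC, NF-YB2 and AGL18, the responses of CDF3 (-0.80), SPL11 (-0.73) and SEP4 (-1.29) differed between the genotypes by the same test, which makes 6 of 77 (7.79%, beside 14.6% of all genes). These last 3 were named after their values were seen. Genes on the opposite strand share 44.1% of the windows of BFT, 30.9% of those of NF-YB2, 14.0% of those of CO and 26.1% of those of SEP1, so reads of these genes may not be their own alone.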

How the data were processed

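Poly(A) RNA of 12 seedling libraries was sequenced by the authors with strand-specific kits and reads of 75 bases, and per the labels the processing notes name FastQC, STAR, DESeq2 and the TAIR10 build. The tool that assigned reads to genes, and whether it used strand, was not given in the sources used here. What the authors deposited is normalized signal, 1 value for each gene and library, in a Col-0 table of 21812 genes and an ap1/cal table of 21865. They behaved as estimated reads divided by 1 size factor per library: of values up to 50, all those of genes with 1 transcript were whole multiples of a step (tolerance 0.001), but between 66.8 and 70.2% of those of all genes, so no count model was run. Size factors lay between 0.521 and 2.30. They were taken from these steps, so estimated reads carry the same step. A limit of 3 reads per library covers counting error only.

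Groups and replicate numbers came from the sample labels. Values were fitted as log2(value + 1) with limma 3.58.1 in R 4.3.3, with a mean-variance trend, 4 group means and all 12 libraries in 1 fit, so that all groups share 1 estimate of the spread. Genes with at least 10 in at least 3 libraries were kept, 20623 of the 21623 in both tables, and p-values were adjusted over all of them by Benjamini-Hochberg. The study's 1.5-fold limit was kept. Of 22054 gene IDs, 21896 (99.3%) matched TAIR10.1, which gave names, coordinates, exon lengths and sequences.

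The named genes outside the members were, per list, the 2 called with the largest change in each genotype. The members and lists were chosen with earlier results of these data known. The 3 libraries of a group are biological replicates per the study's methods, and the labels do not say whether they came from separate plates. In ap1/cal, libraries with the same replicate number deviated together weakly (r = 0.12, 0.12 and 0.17 across genes), which does not show that they were paired. Alternatives were other scalings, pseudocounts, call rules and filters, a replicate block, separate fits, removal of a length and GC trend, and leaving out each library.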

Additional observations from a re-analysis of the deposited data

How the results depend on the processing

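Of 476 alternative values of single members, 414 kept their direction and their side of the limit, 29 lost the call, 16 gained it and 17 turned sign. Of the members called in Col-0 (4), 1 remained in a test against a fold of 1.5, and 3 to 5 were called when each library was left out. In ap1/cal (5) the count was 3 with upper-quartile scaling, 2 in the test against a fold of 1.5, 3 at an unadjusted p below 0.01, and 3 to 5 without each library. For the difference of responses (0) it was 1 with upper-quartile scaling and 1 with library-size scaling, and 0 to 1 without each library, SOC1 in each case. For the 77 pathway genes, 49 were called in Col-0 and 64 in ap1/cal at any fold, and 24 in ap1/cal in the test against a fold of 1.5. Leaving out libraries gave 26 to 29 in Col-0, 35 to 41 in ap1/cal and 3 to 8 for the difference, which was 11 at any fold and 0 in the test against a fold of 1.5.

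Signs turned for FLM in Col-0, to -0.036 with the upper quartile and -0.30 with the library total, and in ap1/cal, to -0.21 with the total. Among differences between genotypes, none of them called, FLC turned to -0.041 with the total and SVP to -0.12 with the upper quartile and -0.21 with the total. Without single libraries the differences ranged between -1.01 and 0.085 for FT, -0.042 and 0.068 for SVP, and -0.51 and 0.22 for AGL24. With the trend of fold change with exon length and GC content removed, FLC fell short of the fold limit (0.35 for Col-0 and 0.48 for ap1/cal), as did AGL24 of the p limit in ap1/cal (0.75), while SOC1 in Col-0 (-0.68) and FLM in ap1/cal (0.95) passed. The cause was not tested.

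With the replicate block, 4 members were called in Col-0, 5 in ap1/cal and 0 for the difference, and 28, 38 and 6 pathway genes, so the block changed no member's call. In Col-0 same-numbered libraries did not deviate together (r = 0.06, 0.06 and -0.05). Depth limits FT, FUL, TFL1, LFY and AGL24 most, since their values rest on few reads, and neither TFL1 at 0 nor FT at 0 shows absence.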
